A study of Mus musculus with 12 samples.

Results

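Integrins are cell-surface receptors built from 1 alpha and 1 beta chain, and 10 genes of the integrins that leukocytes carry were followed in migratory dendritic cells (DCs) from 3 organs. The genes were chosen by symbol: the alpha chains Itgal, Itgax, Itgam, Itgae, Itga4 and Itgav and the beta chains Itgb2, Itgb7, Itgb1 and Itgb3, which are 10 of the 55401 genes in the deposited tables. All 10 passed the filter on low counts. The donors were B6 mice aged 6 to 8 weeks, and the organs were liver, duodenum and pancreas, with 4 libraries per tissue and a pool of 2 mice behind each library. RNA with polyA tails was sequenced in bulk from cells sorted as live, CD45+ and lineage-negative, with CD11c, high MHC class II and CD103 but no CD11b. No group carried a genetic change or a treatment according to the labels. The study compares cells of 1 sort between organs that share lymph nodes.

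Alpha and beta chains pair inside the cell, and only a complete pair reaches the surface. The beta 2 integrins, made of Itgb2 with Itgal, Itgax, Itgam or Itgad, bind ICAM proteins and complement fragments and hold a DC to T cells or vessel walls. The beta 7 integrins are alpha E beta 7, whose alpha chain is CD103 and which binds E-cadherin of epithelium, and alpha 4 beta 7, which binds MAdCAM-1 on gut vessels. CD103 marks conventional type 1 DCs (cDC1) of many tissues, while CD11b marks most cells of the other conventional type (cDC2). So 3 of the 10 genes encode proteins that the sort itself selected on, Itgae (CD103) and Itgax (CD11c) for presence and Itgam (CD11b) for absence, and their transcripts describe cells already chosen on the protein.

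The 12 libraries held 220.9 to 356.1 M estimated counts (M, mega). In liver 2, pancreas 3 and pancreas 4 the antibody gene Igkc stood at 1277, 1196 and 1358 TPM, against at most 2.73 TPM in the other libraries of those tissues and 5335 to 8895 TPM in duodenum. Levels below are TPM, the abundance of a transcript scaled for gene length and to the same total in every library, which allows genes to be compared with each other, and a level given with ± is the mean and SD of the 4 libraries of a tissue (n = 4). Differences between tissues are log2 differences of counts scaled between libraries by TMM, with ± for the standard error (SE), and genes were called where the p of edgeR, adjusted by Benjamini-Hochberg across the 44624 genes tested, was below 0.05. The sort markers Ptprc (CD45) and H2-Ab1 (MHC class II) passed the test in no comparison of all 12 libraries. Without duodenum 2, Ptprc was called lower in liver (-0.38, adjusted p = 0.0171) and in pancreas (-0.45, adjusted p = 0.00627) than in duodenum. In cells sorted in bulk, fewer cells that express a gene and less RNA of it per cell cannot be told apart. Comparisons of liver and of pancreas with duodenum share the 4 duodenum libraries.

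**Figure D1:**
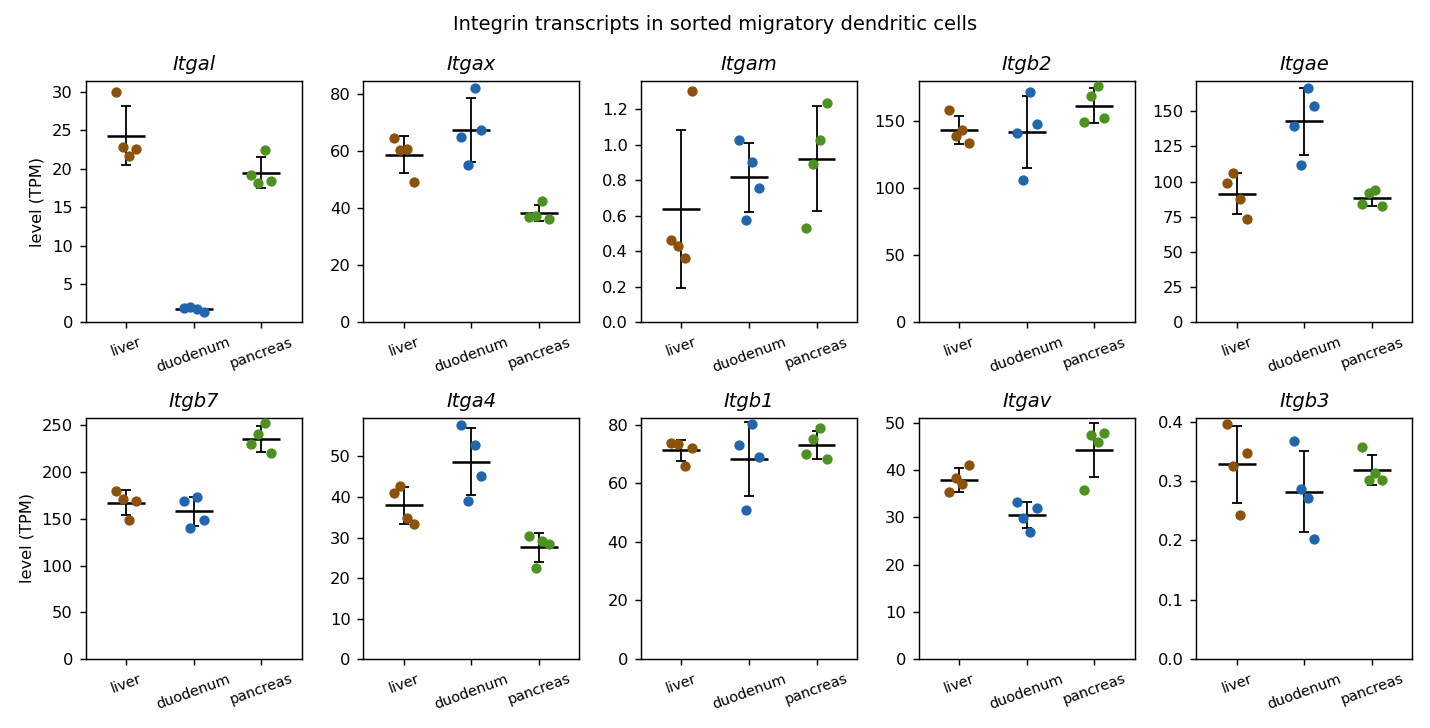
Level of each of the 10 integrin genes in TPM (y axes, each from 0) in the 4 libraries of liver, duodenum and pancreas (points), with the mean and SD of each tissue (lines and bars). Itgal lies between 1.36 and 1.98 TPM in duodenum and between 18.1 and 30.01 TPM elsewhere, while Itgb2 and Itgb1 overlap between all tissues.

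Of the 10 genes, Itgal and Itgae were called between liver and duodenum, where 7.32% of all genes tested were called (3.37% higher and 3.95% lower in liver). Between pancreas and duodenum 5 were called, Itgal, Itgb7, Itgax, Itgae and Itga4, beside 7.7% of all genes (3.76% higher and 3.94% lower in pancreas). Only Itgb7 was called between liver and pancreas, beside 1.11% of all genes (0.426% higher and 0.681% lower in liver). Without liver 2, pancreas 3 and pancreas 4 the members called were 2, 3 and 0, and without duodenum 2 there were 4 between liver and duodenum. Genes at these levels are called more often than all genes: among the 9353 genes with a mean of at least 5 TPM the shares were 19.8%, 20.6% and 3.13%, and 8 of the 10 members lie above that level. The 4 and 4 libraries did not overlap in TPM for 3 members between liver and duodenum, 6 between pancreas and duodenum and 3 between liver and pancreas, where 15.6%, 13.6% and 7.33% of all genes tested and 32.0%, 32.3% and 16.8% of those with a mean of at least 5 TPM did not overlap.

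By mean level over the 12 libraries the order was Itgb7 (187 TPM), Itgb2 (149), Itgae (108), Itgb1 (70.9), Itgax (54.7), Itga4 (38.1), Itgav (37.6), Itgal (15.2), Itgam (0.793) and Itgb3 (0.309). The order was not the same in each tissue. Itgb7 had the highest mean in all 3, but its libraries overlapped those of Itgb2 in liver and those of Itgae and Itgb2 in duodenum. Itgae had a mean of 91.5 TPM against 143 for Itgb2 in liver, without overlap, while in duodenum the 2 genes overlapped at 143 and 142 TPM. Itga4 lay wholly above Itgav in duodenum (38.96 to 57.8 against 26.85 to 33.26 TPM) and wholly below it in pancreas (22.41 to 30.39 against 35.74 to 47.91 TPM), and the 2 overlapped in liver. The coefficient of variation over the 12 libraries was 68.5% for Itgal, the highest of the 10, and 10.7% for Itgb1, the lowest.

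Itgal (ENSMUSG00000030830) encodes CD11a, the alpha chain of LFA-1, which binds ICAM-1 and tightens the contact of leukocytes with T cells and endothelium. Its level in the liver libraries was 30.01, 22.9, 21.7 and 22.6 TPM, in duodenum 1.81, 1.98, 1.74 and 1.36 TPM, and in pancreas 19.1, 18.1, 22.4 and 18.4 TPM. Every duodenum library lay far below every library of the other tissues, and liver and pancreas overlapped. The log2 difference was 3.66 ± 0.17 for liver minus duodenum (SE, adjusted p = 5.07e-08), a fold of 12.6. For pancreas minus duodenum it was 3.45 ± 0.16 (adjusted p = 3.31e-08), a fold of 10.9. Liver minus pancreas was 0.21 ± 0.15 (adjusted p = 0.818), with a 95% interval of -0.08 to 0.51. The calls against duodenum held in all 23 alternatives, between 3.21 and 3.81 for liver and between 2.91 and 3.51 for pancreas. Between 1602 and 34945 estimated counts stood behind the gene in a library, so the low values in duodenum did not rest on few reads.

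T cells, NK cells and B cells also carry LFA-1. The 12 T cell markers summed to 9.78 to 14.5 TPM in liver, 15.7 to 20.1 in duodenum and 9.31 to 10.98 in pancreas. Of these markers 7 had a mean under 1 TPM in every tissue. Cd8b1 stood at a mean of 1.51 TPM in liver, 8.09 in duodenum and 0.895 in pancreas. The other 11 markers summed to 9.15 to 10.89, 8.59 to 11.6 and 8.27 to 10.2 TPM, which overlap. Without Cd3d, which leads that list, the sums were 4.94 to 9.28, 11.4 to 16.5 and 4.97 to 6.62 TPM, with duodenum above both others. The part of these cells in Itgal was not tested. The 11 markers of NK cells and innate lymphoid cells summed to 3.28 to 12.2 TPM over all libraries, and 9 of them had means under 1 TPM in every tissue.

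Itgax (ENSMUSG00000030789) encodes CD11c, the alpha chain that defines DCs in most sorts. Its level was 64.4, 60.4, 60.8 and 49.1 TPM in liver, 64.7, 55.1, 82.1 and 67.3 TPM in duodenum and 37.0, 37.1, 42.4 and 36.3 TPM in pancreas. All pancreas libraries lay below all others, and liver and duodenum overlapped. Pancreas minus duodenum was -0.89 ± 0.16 on the log2 scale (adjusted p = 0.00293) and was called in all 23 alternatives. Liver minus pancreas was 0.52 ± 0.16 (adjusted p = 0.2), called in 4 of 23 alternatives. Liver minus duodenum was -0.36 ± 0.16 (adjusted p = 0.227), and without duodenum 2 it was called (-0.54, adjusted p = 0.0197).

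Itgam (ENSMUSG00000030786), for CD11b, was near the floor in all tissues. Its level was 0.463, 0.428, 0.363 and 1.30 TPM in liver, 1.03, 0.579, 0.902 and 0.755 TPM in duodenum and 0.533, 0.891, 1.03 and 1.24 TPM in pancreas, from 273 to 886 estimated counts. The tissues overlapped throughout and no comparison was called. The log2 difference of liver minus duodenum was -0.54 ± 0.40, and -1.19 without liver 4 (adjusted p = 0.0487).

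In the GENCODE M21 annotation of GRCm38, 68.7% of Itgam's exon bases also belong to the predicted gene Gm49368 on the same strand, so reads could be split between the 2 genes and Itgam's own level is uncertain. Gm49368, named only because it shares these exons, stood at 6.32, 3.96, 2.13 and 4.12 TPM in liver, 2.73, 2.58, 1.82 and 0.621 TPM in duodenum and 0.373, 0.924, 0.378 and 0.478 TPM in pancreas. It was called lower in pancreas than in liver (liver minus pancreas 2.83 ± 0.46, adjusted p = 0.00556) and than in duodenum (-1.90 ± 0.44, adjusted p = 0.0156). Without liver 2, pancreas 3 and pancreas 4 neither passed (adjusted p = 0.22 and 0.207), and the second also ended without duodenum 1 or without pancreas 1 (adjusted p = 0.0509 and 0.0504). The sum of both genes was 4.77 ± 1.81 TPM in liver, 2.75 ± 1.01 in duodenum and 1.46 ± 0.41 in pancreas. That order is the reverse of Itgam's own means, 0.639 TPM in liver, 0.817 in duodenum and 0.923 in pancreas.

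Itgam, Itgax and Itgad follow one another on the chromosome with no other protein-coding gene between them in RefSeq. Of the 10 members 6 had a promoter in the RefSeq table of build GRCm38.p6. The 250 bases before the start of the abundant Itgax and of its near-silent neighbour Itgam are shown because the pair differs so widely in level. Capitals mark matches on either strand to the letters TGANTCA (AP-1), GAGGAA (of the type PU.1 binds), GGGCGG (Sp1) and TGTGGT or TGTGGC (RUNX). Itgax lies on the plus strand at chr7:128129300-128129549, and Itgam on the plus strand at chr7:128062390-128062639.
Itgax: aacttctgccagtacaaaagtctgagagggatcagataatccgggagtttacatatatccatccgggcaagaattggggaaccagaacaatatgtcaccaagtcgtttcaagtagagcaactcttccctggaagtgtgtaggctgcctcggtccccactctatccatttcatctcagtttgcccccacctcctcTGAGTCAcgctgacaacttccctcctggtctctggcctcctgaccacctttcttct
Itgam: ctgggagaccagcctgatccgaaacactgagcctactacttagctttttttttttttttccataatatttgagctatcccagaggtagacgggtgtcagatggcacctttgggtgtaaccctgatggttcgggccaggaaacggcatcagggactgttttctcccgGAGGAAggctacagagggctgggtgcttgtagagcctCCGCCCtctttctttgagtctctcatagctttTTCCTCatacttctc
The Itgax window holds 1 match, TGAGTCA from 56 to 50 bases before the start. The Itgam window holds GAGGAA from 84 to 79 bases and its reverse complement TTCCTC from 15 to 10 bases before the start, and CCGCCC, the reverse complement of GGGCGG, from 47 to 42 bases. Over the same window, TGANTCA is found in 6.75% of 32851 promoters, GAGGAA in 23.3%, GGGCGG in 32.7%, TGTGGT in 14.0% and TGTGGC in 15.7%. A match describes the letters and shows no binding.

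Itgb2 (ENSMUSG00000000290), for CD18, is the beta chain of all these pairs. Its level was 158, 139, 143 and 134 TPM in liver, 141, 106, 171 and 148 TPM in duodenum and 149, 169, 176 and 152 TPM in pancreas. The 3 tissues overlapped, and no comparison was called in the main test or in any of the 23 alternatives. The log2 differences were -0.15 ± 0.16 for liver minus duodenum, 0.12 ± 0.16 for pancreas minus duodenum and -0.27 ± 0.16 for liver minus pancreas. Their 95% intervals ran from -0.47 to 0.17, from -0.20 to 0.44 and from -0.59 to 0.05.

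Because TPM can be set side by side between genes, the makeup of the alpha chains that pair with Itgb2 was read as each gene's share of the summed TPM of Itgal, Itgax, Itgam and Itgad. Itgal made up 27.98 ± 2.64% in liver, 2.40 ± 0.64% in duodenum and 31.9 ± 0.86% in pancreas. Itgax made up 67.6 ± 2.93%, 91.1 ± 0.69% and 62.5 ± 0.67%. Libraries of duodenum, from 90.2 to 91.9% Itgax, stood apart from those of liver (64.6 to 70.9%) and pancreas (61.9 to 63.4%). Itgad kept to between 2.98 and 6.11% and Itgam to between 0.423 and 2.11% in all libraries. The summed level of the 4 chains was 86.7 ± 8.86 TPM in liver, 73.8 ± 12.2 in duodenum and 61.2 ± 4.73 in pancreas. Every pancreas library had a higher Itgal share and a lower sum than every liver library. These are descriptions of the transcripts, with no test.

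**Figure D2:**
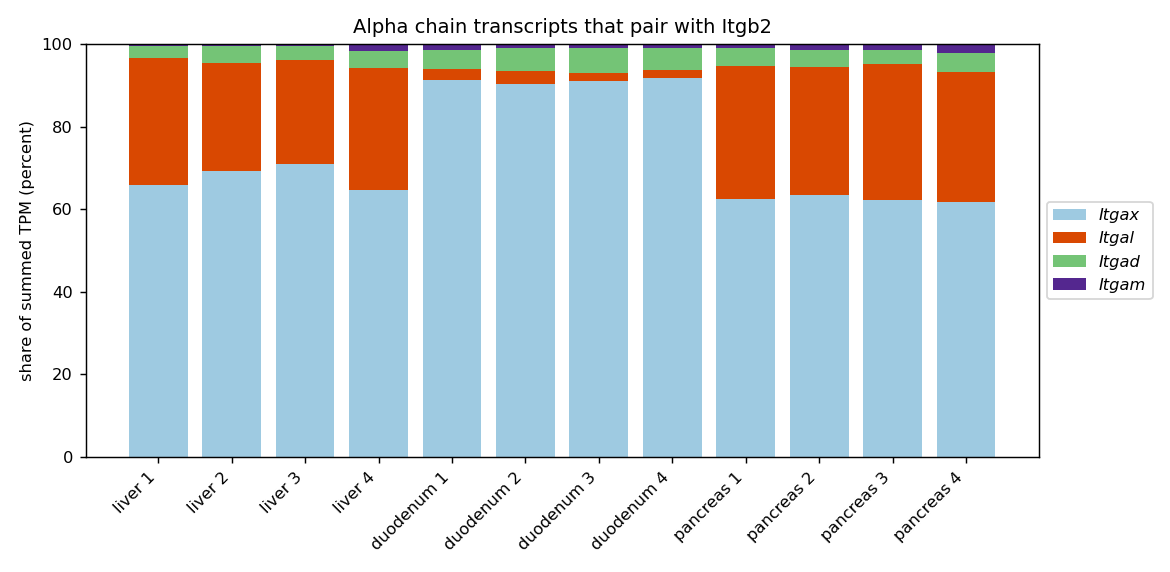
Share of Itgax, Itgal, Itgad and Itgam in the summed TPM of the 4 alpha chains that pair with Itgb2 (y axis, percent) for each of the 12 libraries (bars). Itgal takes 1.86 to 3.24% in duodenum, 25.3 to 30.7% in liver and 31.0 to 32.9% in pancreas.

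Itgae (ENSMUSG00000005947), for CD103, was highest in the tissue where Itgal was lowest. Its level was 98.7, 106, 88.0 and 73.2 TPM in liver, 139, 112, 167 and 154 TPM in duodenum and 84.1, 91.6, 93.9 and 83.0 TPM in pancreas. Every duodenum library lay above every other, the nearest being duodenum 2 at 111.6 TPM over liver 2 at 106.2 TPM. Liver minus duodenum was -0.81 ± 0.17 (SE, adjusted p = 0.00704), called in all 23 alternatives. Pancreas minus duodenum was -0.77 ± 0.16 (adjusted p = 0.00899), called in 22. Without liver 2, pancreas 3 and pancreas 4 it was -0.88 with an adjusted p = 0.0618. Liver minus pancreas was -0.04 ± 0.16 (adjusted p = 0.99), with a 95% interval of -0.37 to 0.28.

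Itgb7 (ENSMUSG00000001281) encodes the beta chain that CD103 needs and that Itga4 can also take. Its level was 180, 172, 149 and 169 TPM in liver, 169, 141, 173 and 149 TPM in duodenum and 230, 240, 253 and 220 TPM in pancreas. All pancreas libraries lay above all others, and liver and duodenum overlapped. Pancreas minus duodenum was 0.51 ± 0.12 (adjusted p = 0.0189) and liver minus pancreas -0.59 ± 0.12 (adjusted p = 0.0298). Both calls were narrow. Leaving out liver 1, 2, 3 or 4, duodenum 4, or pancreas 2, 3 or 4 ended each, with adjusted p from 0.0513 to 0.107 against duodenum and from 0.0612 to 0.119 against liver. With DESeq2 size factors both also ended (adjusted p = 0.119 and 0.0895), at log2 differences of 0.42 and -0.60, as they did without liver 2, pancreas 3 and pancreas 4 (adjusted p = 0.288 and 0.477).

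Itga4 (ENSMUSG00000027009) encodes CD49d, which pairs with Itgb7 for gut homing or with Itgb1 to form VLA-4. Its level was 41.1, 42.7, 34.8 and 33.3 TPM in liver, 57.8, 39.0, 53.0 and 45.3 TPM in duodenum and 30.4, 22.4, 29.1 and 28.5 TPM in pancreas. Pancreas lay below both other tissues without overlap. Pancreas minus duodenum was -0.90 ± 0.16 (adjusted p = 0.00222), called in all 23 alternatives. Liver minus duodenum was -0.53 ± 0.16 (adjusted p = 0.0558), called in 5 alternatives, among them without duodenum 2 (-0.72, adjusted p = 0.00256) and without pancreas 3 (-0.58, adjusted p = 0.0445). Liver minus pancreas was 0.37 ± 0.16 (adjusted p = 0.47). In the annotation 8.04% of the exon bases of Itga4 overlap Cerkl on the other strand. Cerkl stood at 4.96, 4.43 and 4.66 TPM in liver, duodenum and pancreas, and the strandedness of the counting is not given in the sources used here.

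Plasma cells of the gut carry alpha 4 beta 7, and their transcripts were present. The 12 markers of B and plasma cells summed to 9750 to 14730 TPM in duodenum, 152.7 to 1490 in liver and 162.2 to 1765 in pancreas, and Igha, an antibody gene of plasma cells, stood at 4084 TPM in duodenum, 0.141 in liver and 2.00 in pancreas. Their part in the levels of Itga4 and Itgb7 was not tested.

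The windows before Itga4 and Itgb7 are shown because these partners were called in opposite directions between pancreas and duodenum, though the Itgb7 call was narrow. Itga4 lies on the plus strand at chr2:79255176-79255425, and Itgb7 on the minus strand at chr15:102231936-102232185. The same letters were searched and put in capitals.
Itga4: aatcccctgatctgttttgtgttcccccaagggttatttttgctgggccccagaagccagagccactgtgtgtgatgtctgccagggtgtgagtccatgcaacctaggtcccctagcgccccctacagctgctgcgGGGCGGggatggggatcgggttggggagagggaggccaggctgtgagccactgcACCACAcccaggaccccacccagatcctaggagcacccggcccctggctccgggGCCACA
Itgb7: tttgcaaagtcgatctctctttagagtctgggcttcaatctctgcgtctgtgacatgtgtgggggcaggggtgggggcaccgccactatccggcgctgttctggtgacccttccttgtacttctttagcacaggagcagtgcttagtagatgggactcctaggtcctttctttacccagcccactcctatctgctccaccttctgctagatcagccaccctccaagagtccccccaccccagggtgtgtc
The Itga4 window holds both RUNX forms as reverse complements, ACCACA from 60 to 55 bases and GCCACA from 6 to 1 bases before the start, and GGGCGG from 114 to 109 bases. None of the searched letters is in the Itgb7 window.

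**Figure D3:**
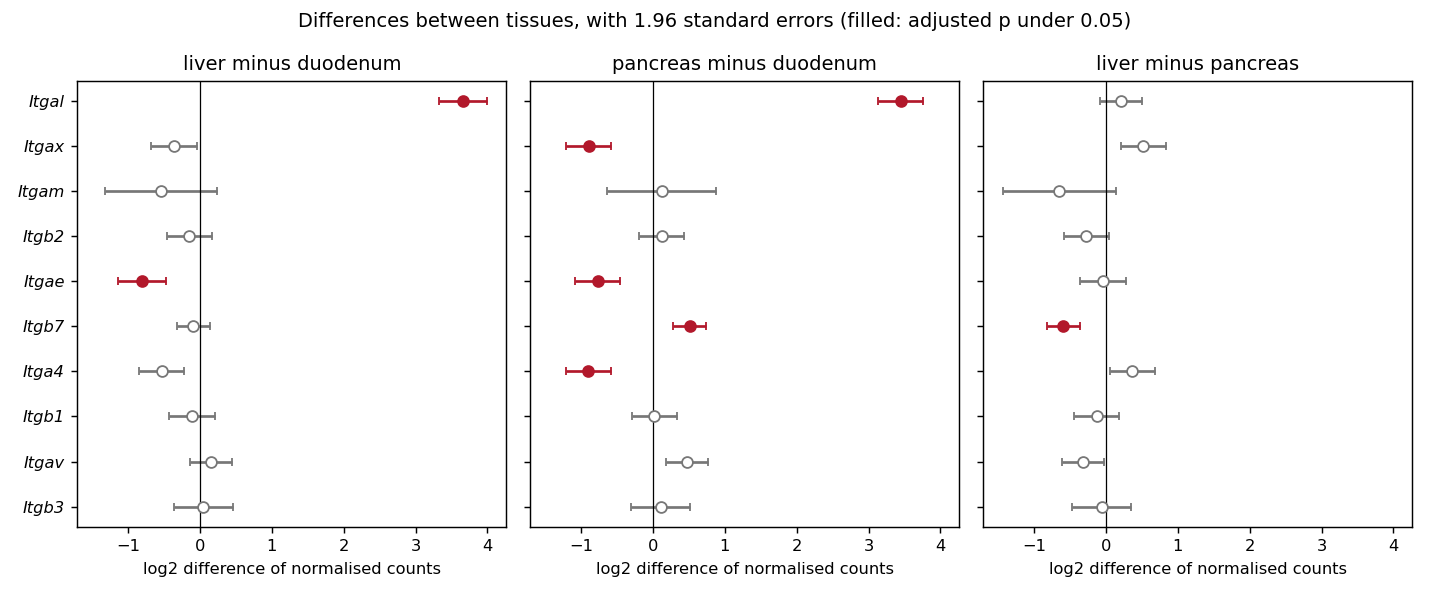
Log2 difference of TMM-scaled counts (x axes) for the 10 genes in the 3 comparisons of tissues, with bars for the approximate 95% interval. Filled red points were called: Itgal and Itgae in liver minus duodenum, 5 genes in pancreas minus duodenum, and Itgb7 in liver minus pancreas.

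Ratios of the chains within a library, which library scaling cannot move, described the balance of partners. The log2 TPM ratio of Itgae to Itgb7 was -0.88 ± 0.23 in liver, -0.16 ± 0.18 in duodenum and -1.42 ± 0.03 in pancreas, without overlap between the tissues. Itgae transcripts were thus close to those of Itgb7 in duodenum and fewest relative to Itgb7 in pancreas. The ratio of Itga4 to Itgb1 followed the same order, at -0.91 ± 0.15, -0.48 ± 0.14 and -1.41 ± 0.24, again without overlap. Itgb7 to Itgb1 was 1.23 ± 0.04 in liver, 1.23 ± 0.17 in duodenum and 1.69 ± 0.02 in pancreas. The summed beta 2 alpha chains relative to Itgb2 stood at -0.73 ± 0.06, -0.93 ± 0.09 and -1.4 ± 0.09. Pancreas was lowest in 3 of these 4 ratios and highest in the fourth.

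**Figure D4:**
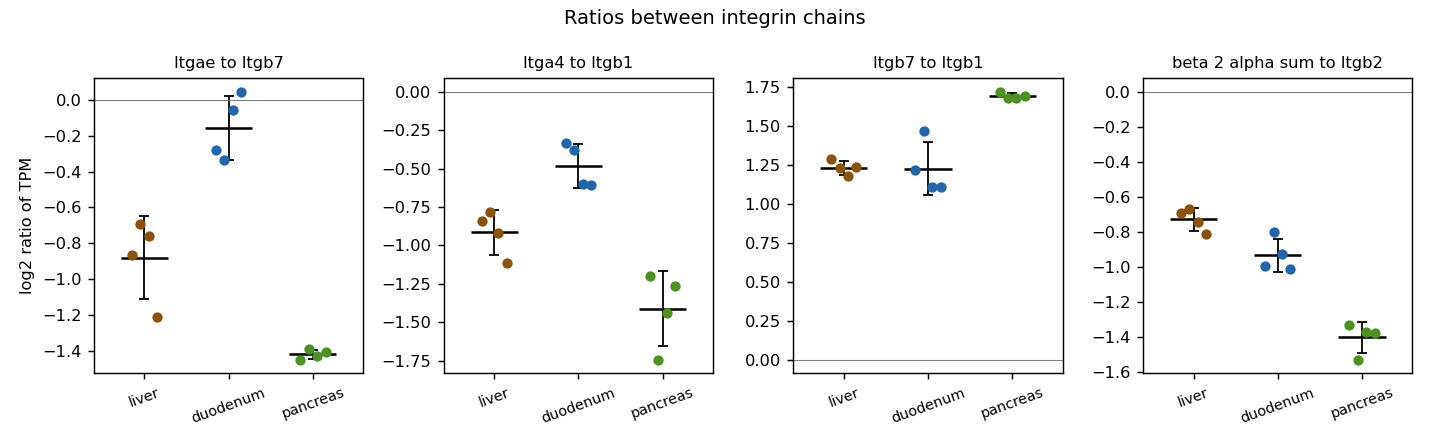
Log2 ratios of TPM between integrin chains (y axes) in the 4 libraries of each tissue (points), with mean and SD (lines and bars) and a grey line at equal levels. Pancreas lies lowest for Itgae to Itgb7 (-1.45 to -1.39), Itga4 to Itgb1 and the beta 2 alpha sum to Itgb2, and highest for Itgb7 to Itgb1 (1.68 to 1.72).

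Itgb1 (ENSMUSG00000025809), the beta chain of the receptors for matrix and VCAM-1, was at 73.7, 73.3, 65.9 and 72.0 TPM in liver, 72.9, 50.8, 80.4 and 69.0 TPM in duodenum and 69.9, 75.1, 78.9 and 68.3 TPM in pancreas. The tissues overlapped and no comparison was called in the main test or in any alternative. The log2 differences were -0.11 ± 0.16, 0.02 ± 0.16 and -0.13 ± 0.16 for liver minus duodenum, pancreas minus duodenum and liver minus pancreas. The 95% intervals ran from -0.42 to 0.19, from -0.28 to 0.33 and from -0.44 to 0.17.

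Itgav (ENSMUSG00000027087) pairs with several beta chains and, with Itgb8, frees latent TGF-beta. It was at 35.3, 38.3, 37.0 and 41.1 TPM in liver, 33.3, 29.95, 26.9 and 32.0 TPM in duodenum and 35.7, 47.3, 45.9 and 47.9 TPM in pancreas. All duodenum libraries lay below all others in TPM. After TMM scaling the differences did not pass the test, with 0.47 ± 0.15 for pancreas minus duodenum (adjusted p = 0.0752) and 0.15 ± 0.15 for liver minus duodenum (adjusted p = 0.686). The first was called with library totals alone (0.55, adjusted p = 0.00667), with limma on TPM at both pseudocounts, with a stricter filter, and without pancreas 1 (0.55, adjusted p = 0.0267). In the annotation 5.9% of its exon bases overlap the antisense gene Gm13684, which was at 3.99, 2.44 and 4.06 TPM in liver, duodenum and pancreas.

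Of the beta chains that Itgav can take, Itgb5 was at 1.30 ± 0.53 TPM in liver, 0.885 ± 0.28 in duodenum and 2.10 ± 1.44 in pancreas, and Itgb8 at 0.402 ± 0.35, 0.227 ± 0.15 and 0.483 ± 0.26 TPM. Itgb3 (ENSMUSG00000020689), which platelets also carry with Itga2b, was at 0.397, 0.326, 0.242 and 0.347 TPM in liver, 0.368, 0.286, 0.271 and 0.202 TPM in duodenum and 0.357, 0.302, 0.314 and 0.302 TPM in pancreas. It rested on 281 to 547 estimated counts, the tissues overlapped, and no comparison was called. The 12 platelet markers summed to 6.03 to 12.6 TPM over all libraries, and 8 of them had means under 1 TPM in every tissue.

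Beyond the 10, 16 other integrin subunits were listed and all were tested. Between liver and duodenum 1 was higher (Itga1) and 1 lower (Itga5), between pancreas and duodenum 1 higher (Itga1) and 1 lower (Itgad), and between liver and pancreas 0 were called by edgeR or by DESeq2 and limma among the alternatives, with 1 at an unadjusted p under 0.05 in edgeR. Their median log2 differences were 0.08, 0.23 and -0.10, beside 0.10, 0.09 and 0.01 over all genes tested, of which 7.32%, 7.7% and 1.11% were called. Without liver 2, pancreas 3 and pancreas 4 the subunits called were 0, 1 and 0, and without duodenum 2 there were 5 between liver and duodenum. Itga1, a chain of the collagen receptor VLA-1, was at 6.93, 7.66, 6.12 and 6.42 TPM in liver, 2.95, 2.38, 4.30 and 2.82 TPM in duodenum and 8.17, 8.19, 6.26 and 6.70 TPM in pancreas, below all others in duodenum. Its differences were 0.95 ± 0.18 for liver (adjusted p = 0.00441) and 1.15 ± 0.18 for pancreas (adjusted p = 0.00099) against duodenum, and the first ended without liver 2, pancreas 3 and pancreas 4 (adjusted p = 0.0549).

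Itga5, of the fibronectin receptor, was at 8.72 ± 0.64 TPM in liver, 12.4 ± 1.25 in duodenum and 10.97 ± 1.397 in pancreas. Liver minus duodenum was -0.67 ± 0.17 (adjusted p = 0.0234), and leaving out liver 4, duodenum 3 or duodenum 4 ended the call (adjusted p from 0.054 to 0.0702), as did leaving out liver 2, pancreas 3 and pancreas 4 (adjusted p = 0.0519). Itgad, the fourth beta 2 alpha chain, was at 3.10 ± 0.30, 4.01 ± 1.02 and 2.52 ± 0.19 TPM, with -0.75 ± 0.21 for pancreas minus duodenum (adjusted p = 0.0442). That call ended without any 1 of duodenum 1, 3 and 4 and the 4 pancreas libraries (adjusted p from 0.0528 to 0.158), without liver 2, pancreas 3 and pancreas 4 (adjusted p = 0.171), with library totals (adjusted p = 0.0964), with only the 2 tissues compared (adjusted p = 0.0981), and with no filter or the replicate block. Itga8, a chain usually described in smooth muscle and stroma, was at 10.6 ± 2.35, 8.77 ± 1.56 and 10.4 ± 2.18 TPM. The 10 stroma markers summed to 2.14 to 4.16 TPM in liver, 1.94 to 4.23 in duodenum and 2.49 to 22.99 in pancreas. Of these markers 8 had means under 1 TPM in every tissue. The part of stroma in Itga8 was not tested. Itga2b, Itga3, Itga6, Itga7, Itga9 and Itgb5 reached a mean of 1 TPM in at least 1 tissue, at 0.711 to 2.34 TPM. In the main test they were called in no comparison. Itga3 for liver minus duodenum (-0.69, adjusted p = 0.1485) was called in 3 of 23 alternatives. These were DESeq2's Wald test (adjusted p = 0.0382), without duodenum 2 (-0.91, adjusted p = 0.037) and without liver 3 (-1.03, adjusted p = 0.0276).

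Integrins bind only after signals inside the cell straighten them, through talin (Tln1), kindlin-3 (Fermt3), the small GTPase RAP1 and their regulators. Of 33 genes of integrin activation and adaptors, all tested, 1 was higher and 10 lower in liver than in duodenum, 2 higher and 9 lower in pancreas than in duodenum, and 1 higher and 2 lower in liver than in pancreas. The medians were -0.09, -0.15 and 0.06, beside -0.10, -0.08 and -0.02 over the genes with a mean of at least 5 TPM. Of all genes tested 3.37%, 3.76% and 0.426% were higher and 3.95%, 3.94% and 0.681% lower in these comparisons. Of the 9353 genes with a mean of at least 5 TPM 19.8%, 20.6% and 3.13% were called in either direction. Those calls leaned to lower as well, with 651, 791 and 103 genes higher and 1197, 1140 and 190 lower. Without liver 2, pancreas 3 and pancreas 4 the called genes numbered 7, 7 and 0, and without duodenum 2 they were 12, 16 and 3.

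Cyth1, for cytohesin-1, a guanine nucleotide exchange factor that binds the tail of the beta 2 chain, was at 21.3, 16.5, 15.8 and 19.0 TPM in liver, 6.29, 6.57, 7.85 and 7.12 TPM in duodenum and 13.9, 19.5, 19.6 and 18.0 TPM in pancreas. Duodenum lay below both, by 1.22 ± 0.17 from liver (adjusted p = 0.000439) and 1.29 ± 0.17 from pancreas (adjusted p = 0.000232), and liver and pancreas overlapped. Rasgrp2, for the activator CalDAG-GEFI that loads RAP1, went the other way, at 1.76 ± 0.32 TPM in liver, 6.51 ± 2.52 in duodenum and 1.30 ± 0.78 in pancreas. It was lower by -2.02 ± 0.38 in liver (adjusted p = 0.00418) and -2.40 ± 0.39 in pancreas (adjusted p = 0.00114).

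Cib1, a calcium-binding protein first found on the tail of Itga2b, was at 37.5 ± 5.23 TPM in liver, 110 ± 9.83 in duodenum and 20.3 ± 4.32 in pancreas, without overlap. Its differences from duodenum were -1.71 ± 0.20 (adjusted p = 0.000107) and -2.49 ± 0.21 (adjusted p = 2.95e-06). Ptk2, for focal adhesion kinase, differed from duodenum by -1.50 ± 0.18 in liver and -1.01 ± 0.17 in pancreas (adjusted p = 0.000108 and 0.00199), and Lims1, for the adaptor PINCH-1 that binds ILK, by -0.94 ± 0.16 and -0.84 ± 0.16 (adjusted p = 0.00184 and 0.00363). The calls of Cyth1, Rasgrp2, Cib1, Ptk2 and Lims1 against duodenum held in all 23 alternatives.

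Zyx, for zyxin, an actin-binding protein of focal adhesions, was at 57.0 ± 5.33 TPM in liver, 55.6 ± 7.69 in duodenum and 88.2 ± 2.83 in pancreas, with 0.59 ± 0.14 for pancreas minus duodenum (adjusted p = 0.0204) and -0.72 ± 0.14 for liver minus pancreas (adjusted p = 0.0245). Leaving out liver 1 or 2, duodenum 1, or pancreas 1, 3 or 4 ended the first (adjusted p from 0.0544 to 0.0964), and leaving out liver 1, 2 or 4 or any pancreas library ended the second (adjusted p from 0.0553 to 0.108). Both also ended without liver 2, pancreas 3 and pancreas 4 (adjusted p = 0.299 and 0.437) and with DESeq2 size factors (adjusted p = 0.106 and 0.0711). Flna, for filamin A, which competes with talin for beta tails, was at 35.3 ± 5.26 TPM in liver, 46.6 ± 5.88 in duodenum and 54.2 ± 4.51 in pancreas and differed by -0.72 ± 0.15 for liver minus pancreas (adjusted p = 0.0275), and leaving out liver 2, 3 or 4, duodenum 4, or pancreas 2, 3 or 4 ended that call (adjusted p from 0.0509 to 0.119), as did leaving out liver 2, pancreas 3 and pancreas 4 (adjusted p = 0.424), DESeq2 size factors and the replicate block. Flna also differed by -0.58 ± 0.15 for liver minus duodenum (adjusted p = 0.0278), called in 13 of 23 alternatives, with overlap in TPM. Fyb, for the adaptor ADAP, was at 21.2 ± 1.77 TPM in liver, 14.7 ± 0.67 in duodenum and 10.4 ± 1.55 in pancreas. It was the 1 gene of this list higher in liver than in pancreas (0.92 ± 0.16, adjusted p = 0.00862). That call ended without liver 2, pancreas 3 and pancreas 4 (adjusted p = 0.107). For pancreas minus duodenum Fyb differed by -0.56 ± 0.16 (adjusted p = 0.0455), called in 14 of 23 alternatives. Fermt3, which all leukocyte integrins need, was at 77.9 ± 9.40, 64.4 ± 11.8 and 69.5 ± 3.39 TPM and was called in no comparison. Tln1 was at 40.98 ± 2.51, 49.2 ± 6.39 and 36.6 ± 4.59 TPM. It was called lower in liver (-0.42, adjusted p = 0.0193) and in pancreas (-0.50, adjusted p = 0.00588) than in duodenum. The liver call held in 18 of 23 alternatives and the pancreas call in 22, and both tissues overlapped duodenum in TPM. Fermt3 and Tln1 were chosen after their values were seen.

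Of 29 genes for integrin ligands and counter-receptors, 5 were higher and 3 lower in liver than in duodenum, 2 higher and 1 lower in pancreas than in duodenum, and 2 higher and 1 lower in liver than in pancreas. Medians were 0.37, 0.28 and 0.06, beside 0.10, 0.09 and 0.01 over all genes tested, of which 7.32%, 7.7% and 1.11% were called. Without liver 2, pancreas 3 and pancreas 4 the called genes numbered 6, 2 and 1, and without liver 3 there were 5 between liver and duodenum. F11r, for JAM-A, a junction protein that LFA-1 binds, was at 10.3, 9.09, 14.5 and 9.54 TPM in liver, 1.92, 2.50, 1.80 and 2.68 TPM in duodenum and 18.2, 14.7, 12.7 and 11.5 TPM in pancreas. Like Itgal it was lowest in every duodenum library, with 2.14 ± 0.21 for liver (adjusted p = 2.41e-05) and 2.6 ± 0.22 for pancreas (adjusted p = 2.81e-06) against duodenum. Spp1, for osteopontin, a ligand of alpha v and alpha 4 chains, was at 5.96, 7.85, 2.75 and 4.91 TPM in liver, 23.3, 20.8, 34.0 and 21.6 TPM in duodenum and 32.4, 36.8, 37.5 and 23.7 TPM in pancreas. Liver lay below both without overlap, by -2.40 ± 0.28 from duodenum and -2.72 ± 0.29 from pancreas (adjusted p = 0.000107 and 0.000117). These calls of F11r and Spp1 held in all 23 alternatives.

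Cdh1, for E-cadherin, the epithelial ligand of CD103, was named after its values were seen. It was low throughout, at 0.199, 0.237, 0.157 and 0.372 TPM in liver, 1.10, 0.531, 1.03 and 0.674 TPM in duodenum and 0.114, 0.219, 0.0474 and 0.248 TPM in pancreas. Duodenum lay above both, with -1.97 ± 0.44 for liver (adjusted p = 0.0128) and -2.51 ± 0.45 for pancreas (adjusted p = 0.0027) against it, as for Itgae. The 10 markers of intestinal epithelium summed to 8.68 to 18.8 TPM in liver, 20.1 to 31.9 in duodenum and 33.1 to 38.5 in pancreas. Without Epcam, which leads that list, the sums were 6.23 to 13.85, 6.99 to 9.98 and 7.67 to 11.97 TPM, which overlap. The part of epithelial cells in Cdh1 was not tested. The other called ligands, also named after their values were seen, were Fga, Fgb, Fgg and C3 higher and Icam2 lower in liver than in duodenum, Fgb and Fgg higher in liver than in pancreas, and Ccn2 higher in pancreas than in duodenum. Leaving out liver 2, pancreas 3 and pancreas 4 ended the calls of Fga (adjusted p = 0.0827) and C3 (0.0593) between liver and duodenum, of Fgb (0.0606) and Fgg (0.051) between liver and pancreas, and of Ccn2 (0.0769). The call of Fga also ended without liver 1 or 3 or duodenum 1 or 4 (adjusted p from 0.0563 to 0.0783), and that of C3 without liver 1 or 3 or duodenum 3 or 4 (adjusted p from 0.0565 to 0.0744). That of Icam2 ended without liver 3, duodenum 1 or duodenum 3 (adjusted p from 0.0538 to 0.0561) and with the replicate block (adjusted p = 0.0599). Fga, Fgb, Fgg, C3 and Ccn2 had means of at most 1.07 TPM in every tissue. Hepatocyte markers, of which Fgb is one, summed to 107 to 161 TPM in liver, 17.7 to 25.3 in duodenum and 169 to 208 in pancreas. Without Trf, which leads that list, the sums were 37.4 to 58.1, 0.891 to 3.97 and 1.52 to 3.55 TPM.

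**Figure D5:**
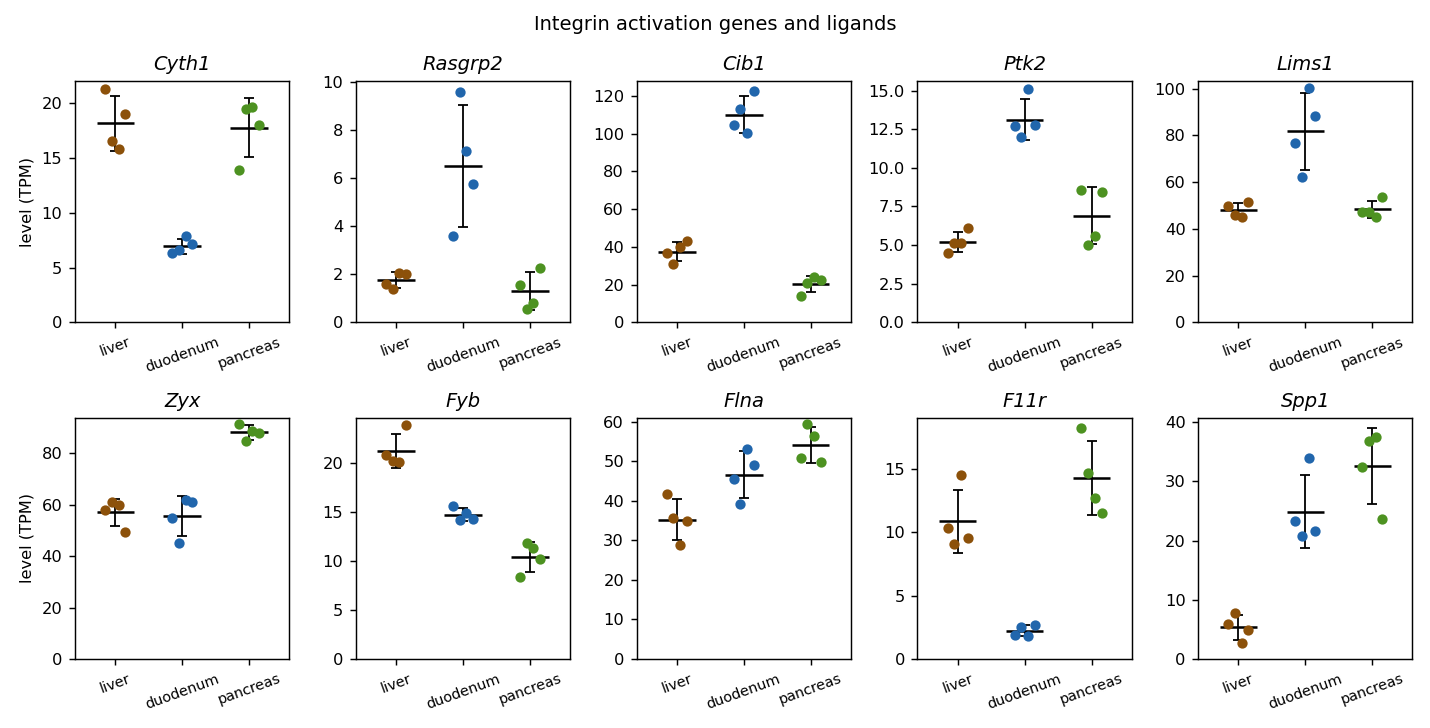
Level in TPM (y axes, each from 0) of 8 genes of integrin activation and adaptors and of the ligand genes F11r and Spp1 in the 4 libraries of each tissue (points), with mean and SD (lines and bars). Cyth1 and F11r are lowest in duodenum, Rasgrp2, Cib1, Ptk2 and Lims1 highest there, and Zyx highest in pancreas.

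The genes whose profile over the 12 libraries was nearest to Itgal were found by the root mean square difference of centred log2 CPM. The search covered 7940 genes with a mean of at least 10 CPM, with predicted genes left out. The nearest were Spata13 (0.20), Gcsam (0.26), P2ry6 (0.32), Il18 (0.35) and Ccr2 (0.36). Spata13 was at 14.2 ± 1.60 TPM in liver, 1.14 ± 0.30 in duodenum and 11.6 ± 1.31 in pancreas. Ccr2, the receptor for monocyte chemokines, was at 129 ± 6.65, 12.3 ± 3.67 and 141 ± 18.9 TPM. For Itgae they were Cnot10 (0.10), Adprh (0.10), Ddost (0.11), Sec13 (0.11) and Ilk (0.11), of which Ilk, the integrin-linked kinase, was at 77.6 ± 12.1, 116 ± 26.1 and 78.6 ± 7.52 TPM. These are descriptions over 12 libraries that share the same 3 tissues, and carry no test.

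The summed markers of some other cells that carry these integrins differed between tissues as well. Macrophage and monocyte markers summed to 530 to 680 TPM in liver, 415 to 584 in duodenum and 888 to 1022 in pancreas. Lyz2 led that list, and without it the sums were 198 to 232, 209 to 313 and 189 to 217 TPM, which overlap. Most of that remainder was Cd68, at 167.5, 238.3 and 173.6 TPM in liver, duodenum and pancreas. Single markers went both ways. Csf1r (7.77, 2.00 and 4.42 TPM), C1qb (4.22, 0.658 and 1.93) and Timd4 (2.67, 0.605 and 10.1) had their lowest mean in duodenum. Adgre1 (0.934, 4.03 and 1.55) and Ly6c2 (21.99, 31.5 and 6.53) had their highest mean there. Markers of cDC2, which carry CD11b, summed to 8.22 to 14.9 TPM in liver, 38.3 to 57.2 in duodenum and 8.08 to 12.3 in pancreas, with Cd209a at 2.27, 11.95 and 0.345 TPM. The 13 cDC1 markers summed to 4694 to 5141, 2488 to 3534 and 4142 to 4549 TPM in liver, duodenum and pancreas. Id2 led that list. Without Id2 the sums were 2492 to 2742, 1749 to 2343 and 2238 to 2473 TPM, and duodenum overlapped pancreas. Neutrophil markers summed to 4.68 to 20.8 TPM over all libraries. The 12 markers of pancreatic acinar cells summed to 1437 to 7855 TPM in pancreas, 3.57 to 5.75 in liver and 3.61 to 19.9 in duodenum. The part of any of these cells in the integrin levels was not tested.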

How the data were processed

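Each library was polyA RNA from sorted cells of 2 pooled mice. The authors deposited estimated counts and TPM per gene, made with kallisto on GRCm39 per the submitters' processing notes. For versions, annotation, strandedness and other steps, the entry is "not given in the sources used here". Estimated counts were rounded to whole numbers for edgeR 4.0.16 under R 4.3.3 (quasi-likelihood F test with robust shrinkage, TMM scaling, filterByExpr with a minimum count of 10, Benjamini-Hochberg adjustment) in 1 model of all 12 libraries. The script was tested on simulated data. The deposited TPM gave levels, shares and ratios. The labels call the 4 pools per tissue biological replicates, and p-values rest on the spread between them. At totals of 220.9 to 356.1 M (mega), every member except Itgam and Itgb3 had at least 1602 estimated counts in each library. Read totals do not give the number of molecules sampled.

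The members and lists were chosen with earlier results of these data known. All members were named, other subunits from a mean of 1 TPM in a tissue, and from the lists of activation genes and ligands up to 4 called genes per comparison and direction with the largest difference and a mean of at least 5 TPM. Exceptions are stated where they stand. The 23 alternatives used DESeq2 1.42.0 and limma 3.58.1 among others, and 1 of them, leaving out liver 2, pancreas 3 and pancreas 4 but no duodenum library, was added after seeing the data. Promoters came from RefSeq (GRCm38.p6), and exon overlaps from GENCODE M21.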

Additional observations from a re-analysis of the deposited data

Results flagged for a closer look

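In 90 groups of 4 libraries, a single library lay far from the other 3 in 8, where chance gives about 1 in 20. Liver 1 had the highest Itgal, 30.01 TPM against 21.68 to 22.87 in the other liver libraries. Pancreas 3 had the highest Itgax, 42.42 TPM against 36.3 to 37.07, and the highest sum of the beta 2 alpha chains, 68.23 TPM against 58.47 to 59.23. Liver 4 had the highest Itgam, 1.304 TPM against 0.3628 to 0.4625, and so the highest Itgam share of the beta 2 alpha chains, 1.713% against 0.4232 to 0.4904%. Duodenum 1 had the highest Itgam share of its tissue, 1.453% against 0.9496 to 1.031%. Pancreas 1 had the lowest Itgav, 35.74 TPM against 45.85 to 47.91. Liver 3 had the highest Itga6, 3.179 TPM against 1.901 to 2.014. What lies behind these values was not tested.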

How the results depend on the processing

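Over 23 alternatives and 30 differences of the 10 integrin genes, 649 of 690 values stayed on the same side of the threshold, 24 lost a call, 17 gained one, and none of the called differences changed sign. Members called between liver and duodenum (2) became 4 with a filter of 1 CPM, and ranged from 2 to 4 when 1 library was left out. Between pancreas and duodenum (5) they became 3 without liver 2, pancreas 3 and pancreas 4, and ranged from 4 to 6 with 1 library left out. Between liver and pancreas (1) they became 0 with DESeq2 size factors or without those 3 libraries, 2 with library totals, with limma at either pseudocount or with the 1 CPM filter, and ranged from 0 to 1 with 1 library left out. All genes called between liver and duodenum (3265) became 5133 with DESeq2's Wald test and 2069 without the 3 libraries, and ranged from 2397 to 4807 with 1 library left out. Between pancreas and duodenum (3437) they became 1712 without the 3 libraries, and ranged from 2596 to 4716. Between liver and pancreas (494) they became 820 with library totals, 1171 with the Wald test, 931 with the 1 CPM filter and 177 without the 3 libraries, and ranged from 343 to 749, the highest without duodenum 2. The cause of these changes was not tested. The split of calls moved with the scaling: 46.0% of those between liver and duodenum were higher in liver with TMM, 35.3% with DESeq2 size factors and 63.5% with library totals, and 48.9%, 40.0% and 56.8% of those between pancreas and duodenum were higher in pancreas. Of the calls between liver and pancreas, liver was the higher in 38.5% with TMM and in 52.2% with library totals. The all-gene median of liver minus duodenum moved from 0.10 to 0.02 and 0.25.

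With the replicate number as a block the genes called were 2931, 3125 and 436 and the members called 2, 5 and 0. Same-numbered libraries deviated together little (correlations from -0.05 to 0.10, best with their own number in 3 of 12), so the numbers were not taken as pairs.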
